A study of Mus musculus with 2 samples.

Results

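Nras, Hras, Araf, Braf, Map2k1, Map2k2 and Mapk3 encode steps of the cascade that runs from Ras through Raf and Mek to Erk, and they were followed by gene name as 7 of the 34745 genes in the deposited tables. Other genes of the core cascade were not analysed here, so the values do not cover it as a whole. RNA of sorted BM LSKs (cells that lack lineage markers and carry Sca1 and c-Kit) was sequenced from Scl/tTA-BCR/ABL (BA) mice, which carry both the Scl/tTA driver and the BCR/ABL transgene on a C57BL/6 background. The week-0 library came from mice kept on doxycycline, which holds BA off, and the week-3 library from mice at 3 weeks after doxycycline withdrawal. Cells of 3 mice were pooled for each library, with 1 library per time point, and the ages are not given in the sources used here. The Scl element that drives tTA restricts BA to stem and progenitor cells, and the share of sorted cells that expressed it was not measured by these files. The effects of BA, of the time point and of doxycycline itself cannot be told apart, and the difference between the libraries has no replicate check.

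Ras proteins are small GTPases on the inner face of the cell membrane that switch on when an exchange factor loads them with GTP. Active Ras recruits Raf kinases, which phosphorylate the Mek kinases, which in turn phosphorylate Erk. BCR/ABL, the fusion kinase of chronic myelogenous leukemia, feeds into Ras through the adaptor Grb2 and the exchange factor Sos1. The cascade is switched mainly at the protein level, by GTP loading and phosphorylation, neither of which RNA-seq measures.

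Reads on genes numbered 6356164 in the library of week-0 and 3886695 in that of week-3. Both sort markers were present, with 1391 and 580 reads of Kit and 434 and 199 reads of Ly6a, the gene of Sca1, in the order week-0 then week-3. The libraries differed in markers of other cells. In reads per 1000000, the sum of 6 mast cell genes went from 86.2 in the week-0 library to 3707 in the week-3 library, with Tpsb2 at 0 reads at week-0. The sum of 6 neutrophil genes was 3020 and 13189, and that of 4 macrophage or monocyte genes was 221 and 891. The sums of 6 B or plasma cell genes (4358 and 431), of 5 erythroid genes (684 and 49.1) and of 8 stem or progenitor genes (1981 and 899) were lower at week-3. Of the 12594 and 3495 reads of the stem or progenitor genes, 6177 and 934 were of Flt3, and Slamf1, with 10 and 15 reads, was higher at week-3. In several other sums a single gene made up most of the reads in at least 1 library. Ly6c2 had 1118 and 3148 of the 1406 and 3464 macrophage or monocyte reads. Ighm had 22231 and 1573 of the 27701 and 1674 B or plasma cell reads. Hbb-bt had 2193 and 131 of the 4346 and 191 erythroid reads. Cpa3 had 524 and 4840 of the 548 and 14408 mast cell reads, most of them at week-0 only. Most of the 19193 and 51260 neutrophil reads were of Elane (5454 and 18391), Mpo (9443 and 18486) and Prtn3 (3552 and 12505). Ltf, Camp and S100a8 had the small remainder. The 5 T cell genes were near 0 in both libraries (2.67 and 1.03). The part of these differences in the values below was not tested, and in bulk RNA fewer cells of a type and less RNA per cell cannot be told apart.

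The 2 Ras genes were both higher at week-3. Nras (ENSMUSG00000027852, plus strand of chromosome 3 of GRCm38, from 103058285 to 103067914), the isoform known for mutations in myeloid leukemias, was counted in 1196 reads at week-0 (FPKM 21.6) and in 1091 reads at week-3 (FPKM 32.3). FPKM is the number of reads per kilobase of exon model and per 1000000 reads of the library. The library at week-3 was shallower, so fewer reads stood for a higher level there. The ratio of week-3 to week-0 was 1.49 (95% interval 1.37 to 1.62), a log2 ratio of 0.58 (0.46 to 0.70). The interval is exact (Clopper-Pearson, from the share of the gene's reads in the week-3 library) and, as all intervals here, covers counting error alone. Amplified reads are not independent molecules, and the spread between mice is unknown. Hras (ENSMUSG00000025499, minus strand of chromosome 7, from 141189105 to 141194005), a close relative of Nras, rested on far fewer reads, 55 in the earlier and 57 in the later library. Its FPKM was 1.02 and 1.73, a log2 ratio of 0.76 with a wide interval from 0.20 to 1.32. Between the Ras genes, the log2 ratio of Hras minus that of Nras was 0.18 (-0.39 to 0.76), so a difference between them was not detectable at this depth.

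Of the 2 Raf genes, Braf was lower at week-3, and no change of Araf was detectable with scaling by total reads. Braf (ENSMUSG00000002413, minus strand of chromosome 6, from 39603237 to 39725463), the Raf kinase with the highest basal activity, went from 207 reads in the week-0 library to 65 in the week-3 library. Its FPKM was 2.12 and 1.09, a ratio of 0.514 (0.382 to 0.682) and a log2 ratio of -0.96 (-1.39 to -0.55). That was the lowest ratio of the 7 genes and lay just inside the 2-fold limit of 0.5. Araf (ENSMUSG00000001127, plus strand of chromosome X, from 20797814 to 20860519), a Raf kinase of weaker activity, had 537 and 294 reads and an FPKM of 8.30 and 7.43. Its log2 ratio of -0.16 had an interval that held 0 (-0.37 to 0.05). The log2 ratio of Araf exceeded that of Braf by 0.80 (0.34 to 1.28), and that of Nras exceeded that of Braf by 1.54 (1.11 to 1.98), both beyond counting error. On the opposite strand, Ndufb2, a gene of the respiratory chain, shares 146 exon bases with Braf and had 57 and 27 reads. The counting is not stated to use strand, so reads in the shared bases cannot be assigned to either gene.

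The Mek and Erk genes differed little between the libraries. Map2k2 (ENSMUSG00000035027, plus strand of chromosome 10, from 81105915 to 81124697), which encodes Mek2, had the most reads at week-0 of the 7 genes. Its 1386 reads gave an FPKM of 36.1 at week-0, and its 1056 reads one of 44.9 at week-3, for a log2 ratio of 0.32 (0.20 to 0.43). Map2k1 (ENSMUSG00000004936, minus strand of chromosome 9, from 64185770 to 64253631), which encodes Mek1, had 296 and 214 reads and an FPKM of 11.5 and 13.5. The log2 ratio of Map2k1 was 0.24, and its interval just held 0 (-0.02 to 0.50). Map2k1 minus Map2k2 was -0.08 (-0.36 to 0.21) on the log2 scale. Mapk3 (ENSMUSG00000063065, plus strand of chromosome 7, from 126759601 to 126765819), which encodes Erk1, had 200 and 142 reads and an FPKM of 8.11 and 9.42. Its log2 ratio was 0.22 (-0.11 to 0.53). No change of Map2k1 or Mapk3 was detectable at this depth with scaling by total reads.

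**Figure D1:**
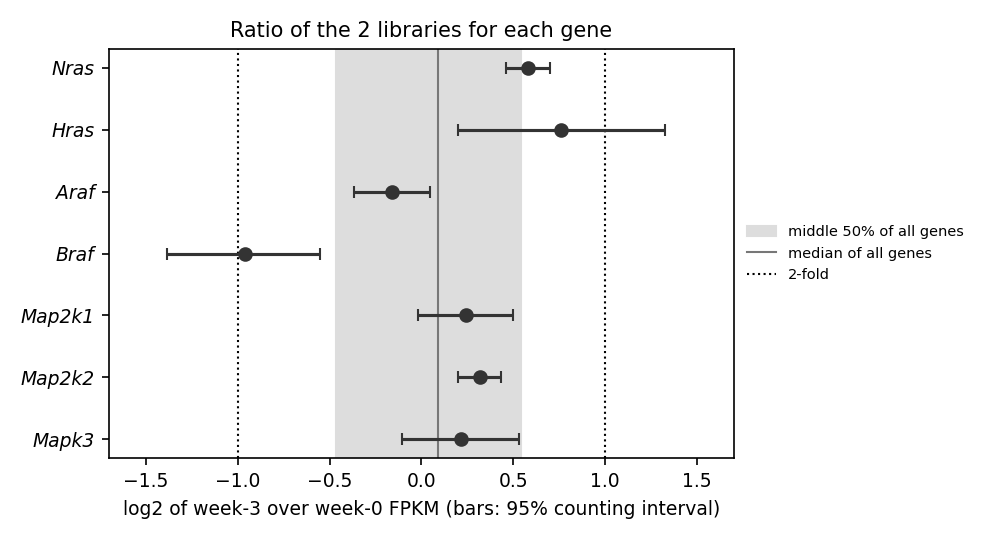
Log2 of week-3 over week-0 FPKM (x axis) of each of the 7 genes (rows), with 95% counting intervals as bars, the middle 50% of all 10307 genes in grey, their median as a grey line and 2-fold as dotted lines. Nras and Hras lie to the right of the grey band and Braf to its left at -0.96, and the other 4 genes lie inside it.

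None of the 7 genes was past 2-fold, the limit the study used for its RNA-seq data. Over the 10307 genes with reads in both libraries and at least 50 in all, a filter that all 7 genes passed, 8.88% had a ratio of at least 2 and 12.4% a ratio of at most 0.5, together 21.3%. With the wider limits of 1.5 and 0.67, 1 gene was past the limit upward (Hras, where the share of all genes was 22.7%) and 1 downward (Braf, where it was 21.6%), 2 of 7 where 44.3% of all genes were past either limit. Nras at 1.49 was just short of 1.5. Counting intervals lay above 0 for 3 genes (Nras, Hras and Map2k2) and below 0 for 1 (Braf), where the shares of all genes were 36.9% and 28.9%, together 65.8%. The median log2 ratio of the 7 genes was 0.24, and that of all genes was 0.09. With 7 genes, these counts set nothing apart from genes in general. Among all genes, 84.7% had a lower log2 ratio than Hras and 76.9% a lower one than Nras. The log2 ratios of Araf, Map2k1, Map2k2 and Mapk3 lay between the quartiles of all genes, -0.47 and 0.54.

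Scaling by TMM (trimmed mean of M-values) lowered all log2 ratios by 0.11 and scaling by median-of-ratios by 0.09, and moved the median of all genes to -0.02 and 0.00. None of the 7 genes changed direction, since shifts of this size were smaller than each of their log2 ratios. Under these scalings Braf passed the 2-fold limit, with ratios of 0.475 and 0.483, where 14.4% and 14.0% of all genes had a ratio of at most 0.5. The interval of Araf then lay below 0, from -0.48 to -0.06 with TMM and from -0.46 to -0.04 with median-of-ratios. With either scaling, 64.3% of all genes had an interval apart from 0.

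Levels of different genes can be compared only per length, and the deposited lengths needed a check. The length behind each FPKM was recovered from the reads, the FPKM and the library total. It was within 1% of the summed length of all distinct annotated exons in GENCODE M21 for 14528 of 19625 genes, and within 1% of the merged exon length for 4812. In the first measure, bases that lie in several overlapping exons are counted several times, which lowers the FPKM of genes with many exon variants. Hras is a clear case, with a length of 8487 bases for a locus of 4901 bases and 3733 bases of merged exons. The ratio of the libraries for a single gene does not depend on this length. For levels, the deposited FPKM and reads per kilobase of merged exons per 1000000 are therefore given side by side.

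At week-0 the order of the deposited FPKM was Map2k2 (36.1), Nras (21.6), Map2k1 (11.5), Araf (8.30), Mapk3 (8.11), Braf (2.12) and Hras (1.02). Each gene exceeded the next beyond counting error except Araf and Mapk3, whose FPKM ratio of 1.02 had an interval from 0.868 to 1.21. At week-3 Map2k2 (44.9), Nras (32.3) and Map2k1 (13.5) were again the highest, followed by Mapk3 (9.42), Araf (7.43), Hras (1.73) and Braf (1.09). Hras and Braf had changed places, and Hras was 1.59 times Braf in FPKM (1.09 to 2.30) at week-3. Per merged exon length, Map2k2 (38.5) was 1.09 times Nras (35.3) at week-0 (1.01 to 1.18), and Nras (52.7) was 1.10 times Map2k2 (48.0) at week-3 (1.01 to 1.20). The annotation of Map2k2 in GENCODE M21 differed from the deposited coordinates, so that its merged exon length, and with it this order, is uncertain. On that scale Mapk3, Map2k1 and Araf lay close together at week-0, at 13.9, 13.7 and 12.9, with neighbours not apart beyond counting error. Braf (2.35) and Hras (2.32) could not be told apart at week-0, and at week-3 Hras (3.93) was 3.26 times Braf (1.21). Map2k2 was above 87.2% of the 10307 genes in FPKM at week-0, whereas Hras was above 7.79% and Braf above 21.7%. At week-3 these shares were 88.9% for Map2k2, 18.2% for Hras and 10.3% for Braf. They rest on the deposited lengths, which lower the FPKM of Hras in particular, and were not computed per merged exon length.

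**Figure D2:**
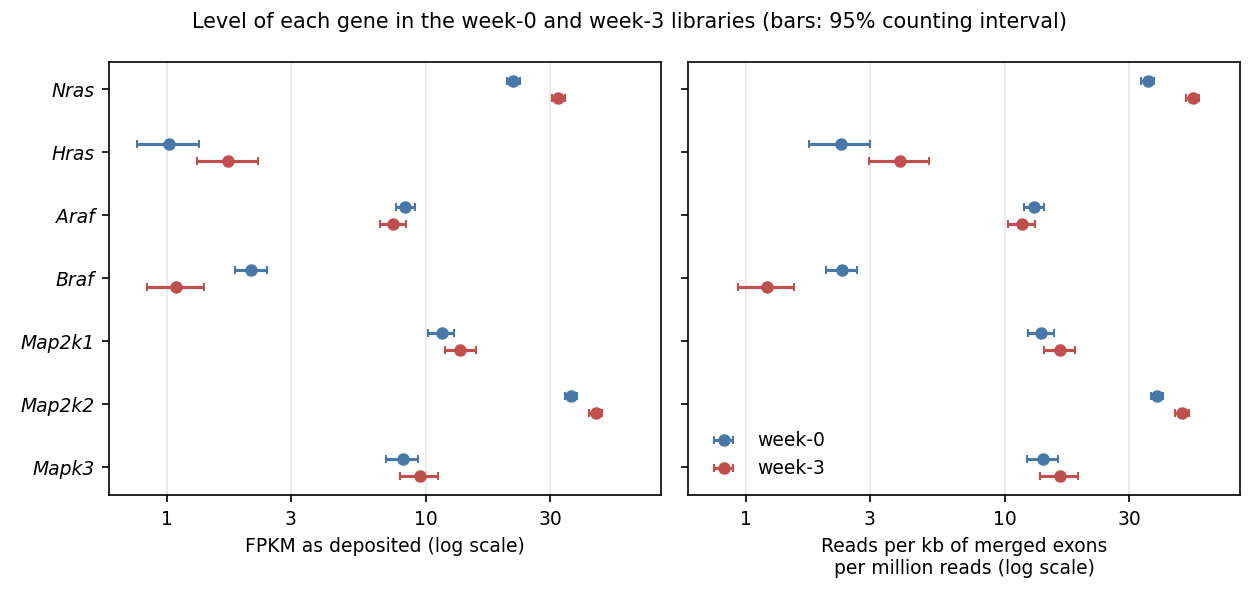
Level of each of the 7 genes (rows) at week-0 and week-3, as deposited FPKM (left x axis, log scale) and as reads per kilobase of merged exons per 1000000 reads (right x axis, log scale), with exact 95% Poisson intervals as bars. Map2k2 and Nras are the highest on both scales, and Hras and Braf the lowest, with Hras above Braf at week-3.

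Each pair of paralogs had a dominant gene, and only the Raf pair moved beyond counting error. Nras made up 95.5% (94.2 to 96.6) of the FPKM of Nras and Hras at week-0 and 94.9% (93.5 to 96.1) at week-3. Map2k1 made up 24.1% (21.8 to 26.5) of the FPKM of Map2k1 and Map2k2 at week-0 and 23.2% (20.6 to 25.9) at week-3. Araf made up 79.7% (76.9 to 82.2) of the FPKM of Araf and Braf at week-0 and 87.2% (83.9 to 90.1) at week-3. Per merged exon length the share of Araf was 84.6% and 90.6%, and from reads alone it was 72.2% and 81.9%, so that the share depended on the length used. The length of a gene is the same in both libraries, and the change in the ratio of Araf to Braf is therefore the same on each scale by construction. Shared sequence was sought as exact stretches of 50 bases. Trimmed reads can be shorter than that, and the mapping allowed mismatches. The counts below therefore do not bound the reads that fit more than 1 gene. Of all stretches of 50 bases in their annotated transcripts, Map2k1 and Map2k2 had 7 in common, 0.207% of those of Map2k1. Nras, Hras, Araf and Braf shared none within their pairs. In all, between 0% (Hras) and 1.13% (Araf) of the stretches of each gene also occurred in transcripts of another gene.

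**Figure D3:**
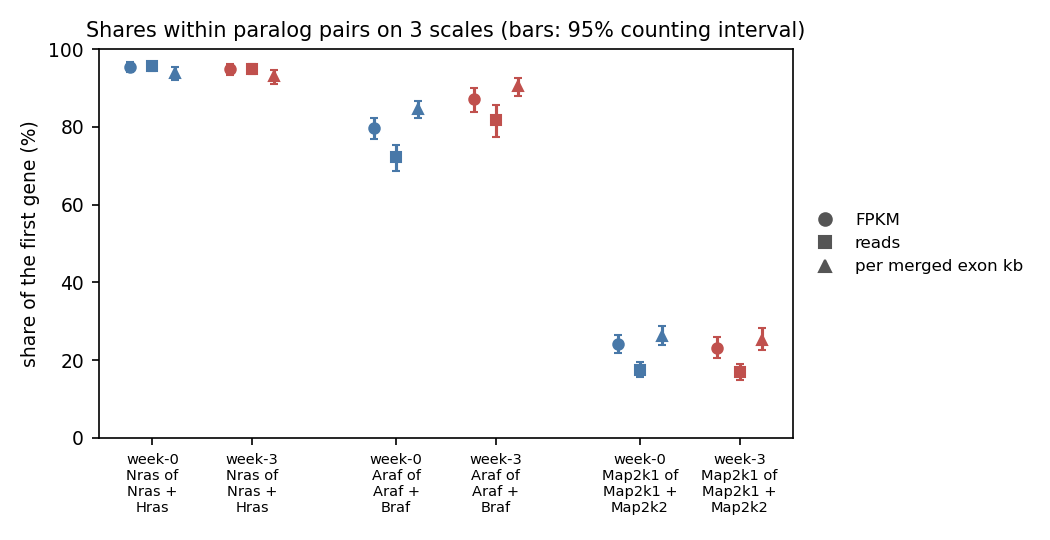
Share of the first gene in each pair of paralogs (y axis, percent) at week-0 (blue) and week-3 (red), from FPKM (circles), reads (squares) and reads per merged exon length (triangles), with exact 95% counting intervals as bars. The share of Araf goes from 79.7% at week-0 to 87.2% at week-3 in FPKM, while the other pairs stay within their intervals.

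The promoters of the genes differ in sequence. RefSeq promoters on GRCm38.p6, 250 bases before to 50 after a RefSeq start, matched 6 of the 7 genes, and Mapk3 had no entry. The window of Araf (chromosome X, from 20848293 to 20848592) lies inside the locus given above, far from its first base at 20797814. The Araf results below therefore describe an internal start and not the start of that locus. Exact matches on both strands were sought for the GC box GGGCGG (in 35.7% of all 32851 promoters of that length), the cyclic AMP response element TGACGTCA (1.79%), the CCAAT box (37.4%), the ETS motif CCGGAAG (8.86%), the E-box CACGTG (7.15%) and the TATA box TATAAA (13.6%). Braf alone of the 6 held the cyclic AMP response element, with 2 matches. The GC box was found in Map2k1 (4 matches), Nras and Hras (3 each), Map2k2 (2) and Braf (1), and not in Araf, which held 3 CCAAT boxes. None of the 6 held the TATA box or the ETS motif. The densest stretches are printed below for the gene lowest at week-3 and for the 2 Ras genes, with the matched letters in capitals, 5′ to 3′ on the strand of the gene. The matches in the stretch of Nras overlap by 1 base.
Braf, chr6:39725535-39725564, minus strand: gaTGACGTCAcgcacccaggTGACGTCAcg
Nras, chr3:103058206-103058235, plus strand: ttgaaatggGGGCGGGGCGGggctggactg
Hras, chr7:141194005-141194034, minus strand: cggacgggcgtgGGGCGGagcgGGGCGGgg
These matches are descriptions of the letters and were not tested for binding. GC content was 52.0% (Araf), 52.3% (Nras), 60.7% (Map2k2), 65.0% (Braf) and 69.0% (Hras and Map2k1). The median over all promoters was 52.7%, and only Araf and Nras lay below it.

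Upstream and downstream of the 7 genes, 89 further genes were read in 9 lists written from their roles. Since the lists were chosen with earlier results of these data known, their counts are descriptions. Of the 79 genes with at least 50 reads, 3 had a ratio of at least 2 (3.80%, against 8.88% of all genes) and 20 a ratio of at most 0.5 (25.3%, against 12.4%). Of those 20 genes, 13 were Erk feedback inhibitors or immediate-early genes. In the other 7 lists, 3 of 63 genes were past 2-fold upward and 7 downward, 4.76% and 11.1% against 8.88% and 12.4% of all genes. The split into 2 and 7 lists was made after the values were seen. With edgeR's exact test at an assumed biological coefficient of variation of 0.4, 3 of the 20 lower calls and 0 of the 3 higher ones were made. The share of all genes called at that setting is not given here, so these counts have no background to be read against.

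Among 11 adaptors and exchange factors that activate Ras, 8 had at least 50 reads and none was past 2-fold. Of these 8, Shc1, an adaptor that links phosphorylated receptors to Grb2, was farthest from 1. It had 845 and 302 reads and a log2 ratio of -0.77 (-0.97 to -0.58). Rasgrp1 (8 and 8 reads), Rasgrp3 (30 and 1) and Rasgrp4 (2 and 21) fell under the read minimum. Their log2 ratios were 0.71, -4.20 and 4.10. Grb2 had a log2 ratio of 0.23 (0.03 to 0.43) and Sos1 of -0.29 (-0.82 to 0.22). Of 8 GTPase-activating proteins, which switch Ras off, 7 had enough reads and 2 had a ratio of at most 0.5. Rasal3, which is expressed in blood cells, had 1630 and 378 reads, a log2 ratio of -1.40 (-1.56 to -1.24). Rasal1 rested on few reads (64 and 11), with a log2 ratio of -1.83 (-2.90 to -0.90). Nf1, the gene of neurofibromin, had a log2 ratio of 0.43 (-0.03 to 0.89).

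Of 9 Ras-related GTPases, 7 had enough reads, and Ralb and Rit1 were past 2-fold upward. Ralb, a GTPase activated downstream of Ras, had 83 and 129 reads and a log2 ratio of 1.35 (0.94 to 1.76). Rit1, a Ras-like GTPase, had 122 and 172 reads and a log2 ratio of 1.21 (0.86 to 1.55). None of 8 genes for the lipid processing and trafficking of Ras was past 2-fold, with Lypla1, a depalmitoylating enzyme, farthest at 0.80 (0.46 to 1.15). Among 15 scaffolds and regulators of Raf and Mek, 14 had enough reads. Lamtor3, the scaffold MP1 that binds Mek1 and Erk1, had 161 and 227 reads and a log2 ratio of 1.21 (0.91 to 1.51). Map3k8 (Tpl2), a kinase that activates Mek without Raf, had 352 and 48 reads and a log2 ratio of -2.16 (-2.63 to -1.73). The other 12 of these genes were not past 2-fold.

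Downstream of Erk, 10 of 11 kinases and transcription factors had enough reads and 2 had a ratio of at most 0.5. Elk4, Elk1 and Elk3 are ternary complex factors, ETS proteins that Erk phosphorylates at serum response elements. Elk4 had 1203 and 222 reads and a log2 ratio of -1.73 (-1.94 to -1.52), and Elk1 had 75 and 15 reads and a log2 ratio of -1.61 (-2.52 to -0.80). Elk3, with 234 and 118 reads, was not past 2-fold, and its log2 ratio of -0.28 had an interval that held 0 (-0.61 to 0.05). Srf, the partner of these factors, had 247 and 130 reads and a log2 ratio of -0.22 (-0.53 to 0.10). Of 10 Erk feedback inhibitors, 8 had enough reads and 6 had a ratio of at most 0.5, with a median log2 ratio of -1.48. At the coefficient of variation of 0.4, 1 of these 6 was called, and 2 of the 7 immediate-early genes given next. Dusp6, the phosphatase that inactivates Erk in the cytoplasm, had 2812 and 259 reads (-2.73). Dusp5 (-3.22), Dusp4 (-2.81), Spry1 (-1.71), Spry2 (-1.26) and Spred2 (-1.09) were also lower. Immediate-early genes moved in the same direction. The 8 of them together went from 26579 to 8417 reads per 1000000, and 7 had a ratio of at most 0.5. Their log2 ratios ran from -5.85 (Atf3) through -3.15 (Egr1), -2.21 (Fosb), -1.66 (Junb), -1.50 (Ier2) and -1.33 (Egr2) to -0.79 (Fos, not past 2-fold), with Jun just past the limit at a ratio of 0.498. Immediate-early and feedback genes respond to Erk and also to handling of cells, and the part of either was not tested. The kinases of the parallel p38, Jnk and Erk5 arms had enough reads for all 9 genes, and 2 had a ratio of at most 0.5. These were Map2k3, a p38 activator (2523 and 548 reads, -1.49), and Mapk8, which encodes Jnk1 (197 and 53 reads, -1.18).

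**Figure D4:**
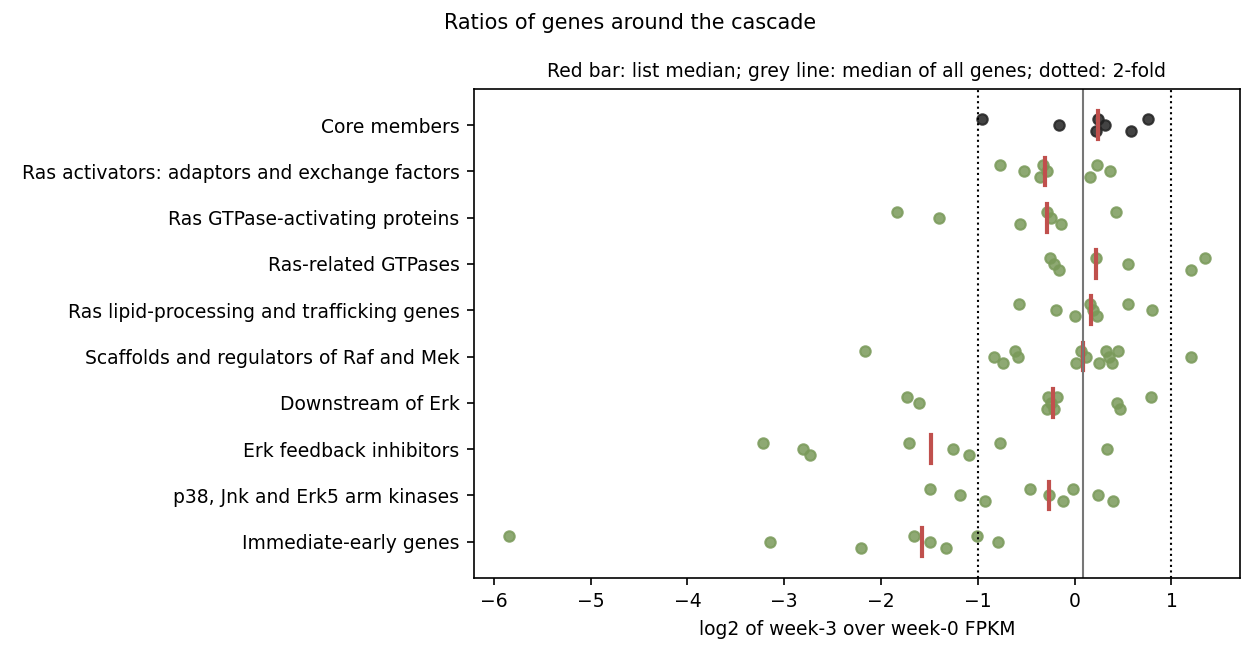
Log2 of week-3 over week-0 FPKM (x axis) of the 7 core genes (black) and of 79 further genes in 9 lists (green), 1 point per gene, with each list's median as a red bar, the median of all genes as a grey line and 2-fold as dotted lines. The core genes lie between -0.96 and 0.76, whereas 13 of the 16 feedback and immediate-early genes lie at or below -1.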

How the data were processed

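Per the study's methods, the SMARTer Ultra Low Input kit was used for cDNA, paired ends were sequenced on an Illumina HiSeq, and trimmed reads were mapped to GRCm38 (mm10). The submitters' processing notes name TopHat2 2.0.9. The counting tool and annotation release are not given in the sources used here. Counts in the deposited tables are unnormalized whole reads per gene, and the authors also deposited FPKM, which they scaled by exon length and by the reads of the library on genes.

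The 2 tables were joined by gene identifier. Ratios are of the deposited FPKM, without a pseudocount. With 1 library per group no test across samples exists, and edgeR 4.0.16 (R 4.3.3), with an assumed biological coefficient of variation of 0.1 or 0.4, was used for alternative calls (exact test, Benjamini-Hochberg adjusted p under 0.05). DESeq2 1.42.0 gave the median-of-ratios factors. Scaling factors were computed from the whole table. The exact tests and their adjustment used only genes with reads in both libraries and at least 50 in all. Shares of all genes are over that same set unless another minimum is named. At 3 reads, the floor is 0.472 reads per 1000000 at week-0 and 0.772 at week-3. Intervals and ratio calls were tested on simulated data with counting error alone. That test does not cover amplified reads or the spread between mice. Exon lengths and overlaps came from GENCODE M21, whose coordinates were identical for 6 of the 7 genes (Map2k2 differed). Other steps ran in Python 3.11.15 with scipy 1.17.1, pandas 2.3.3 and numpy 2.4.6, and plots were drawn with matplotlib 3.10.9.

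The members and lists were chosen with earlier results of these data known. Beyond the 7 genes, the text names each list gene past 2-fold with at least 50 reads or, in a list with none, the gene farthest from 1. The result of 1 further gene is not reported here, and that gene was left out of its list. Grb2, Sos1, Nf1, Fos, Elk3, Srf, Flt3, Slamf1, Ly6c2 and Ighm were named after their values were seen. So were Hbb-bt, Cpa3, Elane, Mpo, Prtn3, Ltf, Camp, S100a8, Rasgrp1, Rasgrp3 and Rasgrp4.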

Additional observations from a re-analysis of the deposited data

How the results depend on the processing

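With TMM scaling, median-of-ratios scaling and pseudocounts of 1 and 0.1, the log2 ratios of the 7 genes stayed within their counting intervals. This held in all 28 of 28 values. Their direction was also kept, but these settings could not have changed it. A pseudocount added to both levels cannot reverse a ratio, and each scaling shifts all genes alike, by less than the smallest of the 7 log2 ratios in size. None of the 270 alternative values was marked as reversed, although 45 of them moved. The counts and shares among the 270 have no direction, and a gene whose interval held 0 could not be marked as reversed. Of 90 counts per list and 100 values of named list genes, 12 each moved. The number of the 7 genes with a ratio of at most 0.5 was 1 in place of 0 with TMM and with median-of-ratios scaling, since Braf lay at the limit. The number with a ratio of at least 1.5 was 0 in place of 1 with a pseudocount of 1. It was also 0 with edgeR's exact test at a biological coefficient of variation of 0.1 or 0.4. The number at or under 0.67 was 0 in place of 1 at 0.4. The share of all genes with a pseudocount of 1 or in these exact tests is not given here. These counts, and those at 0.4 that follow, therefore have no background to be read against. At 0.4, the 79 list genes with at least 50 reads held 0 past 2-fold upward and 3 downward, in place of 3 and 20. With all genes above 0 reads in both libraries, 5 list genes were past 2-fold upward and 23 downward. Of all 15377 genes at that setting, 14.2% were past 2-fold upward and 16.2% downward. The share of all genes past 2-fold was 21.3%, and it was 30.5% without a read minimum and 16.9% with at least 200 reads. For 1.5-fold the shares were 44.3%, 53.8% and 39.6%. From reads without length, the share of Araf in its pair in week-0 was 72.2% (81.9% in week-3), and that of Map2k1 was 17.6% and 16.9%. Per merged exon length, an alternative chosen after seeing the data, the share of Nras was 93.8% and 93.1% and that of Araf 84.6% and 90.6%. No paired analysis was possible because each time point has 1 library. Hras, with under 60 reads in each library, is the gene most limited by depth.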
